A study of Mus musculus with 16 samples.

Results

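The comparison is between livers that lack PPARα in hepatocytes and livers that have it, in mice that underwent a sham operation. It takes 8 of the 16 arrays of the series, 4 sham Ppara△Hep arrays and 4 sham Ppara fl/fl arrays, and covers all 30142 genes that could be named from a probe set with 1 gene symbol. Total RNA of whole liver was taken 12 h after the operation in every group and hybridised to Affymetrix arrays, 1 array per sample. The other 8 arrays come from the same genotypes after partial hepatectomy (PHx), which removes part of the liver. They are used here to see whether a genotype difference recurs or differs after PHx. They also enter an alternative fit of the sham comparison on all 16 arrays. The labels treat the fl/fl mice, whose Ppara alleles are flanked but not disrupted, as wild type. In Ppara△Hep mice the gene is disrupted in hepatocytes, so other cells of the liver may still carry it. The labels name no Cre driver, age, sex or diet, and no step between the operation and the harvest. Nothing in them states that every array had a mouse of its own, and the p-values below describe only how these arrays vary, which may include technical spread. The numbers given to arrays follow the order of the samples and pair nothing.

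PPARα is a nuclear receptor that binds fatty acids and pairs with the receptor RXR on DNA. In hepatocytes it is known for switching on genes that import, activate and oxidise fatty acids in mitochondria, peroxisomes and the endoplasmic reticulum, above all in fasting. The site it is known to bind is a direct repeat of a short recognition sequence with a single base between the copies.

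That repeat was searched on both strands of RefSeq promoters of 300 bases (build GRCm38.p6). The full form was a pair of AGGNCA copies with N between them, where N is any base, and the core was the same without the outermost base at each end, so every full match is also a core match. Of 32851 promoters, 2.14% held the core and 0.381% the full form. Among the 38 genes that passed the test below, 23 lower and 5 higher genes had a promoter sequence, and none of them held the core in this window. Among the other genes singled out below, Acot4 and Fabp1 held a match, on the minus strand. The 150 bases before each start are shown because the genotype differences of these genes had opposite signs, with capitals at the core as it reads on the plus strand.
Acot4, chr12:84038229-84038378, plus strand: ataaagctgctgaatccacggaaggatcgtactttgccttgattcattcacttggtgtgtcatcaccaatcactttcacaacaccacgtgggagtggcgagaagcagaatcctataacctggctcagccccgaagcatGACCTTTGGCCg
Fabp1, chr6:71199729-71199878, plus strand: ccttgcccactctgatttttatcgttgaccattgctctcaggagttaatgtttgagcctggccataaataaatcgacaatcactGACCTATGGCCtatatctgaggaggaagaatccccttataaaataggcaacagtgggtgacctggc
The capitals begin 12 bases before the start of Acot4 and 66 bases before that of Fabp1, and the Fabp1 match extends to the full form. A match describes letters only.

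The values are log2 levels made by RMA, and a difference is the mean of Ppara△Hep minus the mean of fl/fl. The median SD of a gene within a genotype was 0.09 in both groups. Correlations across genes ran from 0.995 to 0.997 between arrays of a genotype and from 0.993 to 0.997 between genotypes. Component 1 of a principal component analysis held 29.2% of the variance, and it placed the 4 Ppara△Hep arrays on one side and the 4 fl/fl arrays on the other, with fl/fl array 2 nearest the border. No arrays held identical values. Of 13 measured hepatocyte markers, 0 reached an unadjusted limma p below 0.05 (11.7% of all genes did), and their summed linear level was 24839 to 25769 in Ppara△Hep and 24745 to 26107 in fl/fl livers.

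Ppara itself was read first. Its log2 level was 6.29, 6.43, 6.43 and 6.05 on Ppara△Hep arrays 1 to 4 and 6.45, 7.02, 6.99 and 6.77 on fl/fl arrays 1 to 4. All Ppara△Hep arrays lay below all fl/fl arrays, fl/fl array 1 only just. The difference of -0.50 ± 0.13 (SE) did not pass (limma adjusted p = 0.237), though it did with the range of title numbers as a block (adjusted p = 0.0259). Where the probe set lies relative to the deleted exons is not known here, and whole liver holds other cells, so the value does not check the labels.

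In all, 38 of the 30142 genes passed at a limma adjusted p below 0.05 (0.126%), 31 of them lower in Ppara△Hep livers (0.103%) and 7 higher (0.0232%). Every one of the 38 had groups that did not overlap (6.8% of all genes). They were chosen by their p on these same arrays, so this is no added support. The smallest p among the lower genes were those of Serinc2, Etfdh, Rab30 and Plin5. Of the 31, 14 are in the 9 fatty acid lists, which hold 110 of the 30142 genes. These lists include fasting signals and other PPARα targets, such as Rab30 and Vnn1, that are not oxidation enzymes. The largest rises among the 7 were of Cyp17a1, Pdk4 and Apoa4. Of the lower genes, 21 differed by at least 1.5-fold and 6 by at least 2-fold, and of the higher genes 3 and 3. The calls depend on the arrays included. Without fl/fl array 3 the counts were 7 lower and 0 higher, and without Ppara△Hep array 1 they were 8 lower and 1 higher. Lower calls numbered 16, 13 and 20 without Ppara△Hep arrays 2, 3 and 4, and 19, 23 and 20 without fl/fl arrays 1, 2 and 4, while higher calls ranged from 1 to 11. A fit on all 16 arrays, whose spread includes the PHx groups, called 3 lower and 1 higher, namely Serinc2, Acadvl, Qpct and Snhg11. Serinc2, Etfdh, Rab30, Plin5, Acadvl, Decr2 and Cpt2 passed in all 8 fits that leave out 1 array, whereas Efna5, Mef2d and Golm2 passed in none. All 38 kept their sign in both the lower and the higher range of the numbers that the sample titles carry. Genes whose groups do not overlap must do so, and thus it adds no support.

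**Figure D1:**
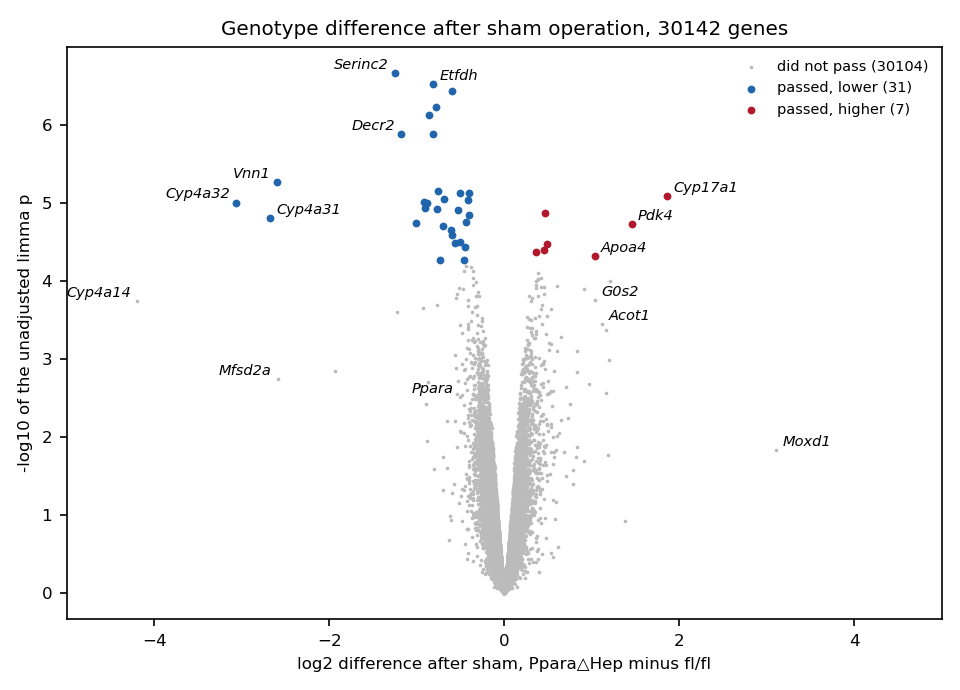
Each point is 1 of 30142 genes, with the log2 difference after sham operation (Ppara△Hep minus fl/fl, 4 arrays each) on the x axis and -log10 of the unadjusted limma p on the y axis. The 31 lower (blue) and 7 higher (red) genes that passed stand out from the grey genes. Cyp4a14 has the lowest difference at -4.20 but did not pass, and Moxd1 the highest at 3.11 with a wide spread.

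**Figure D2:**
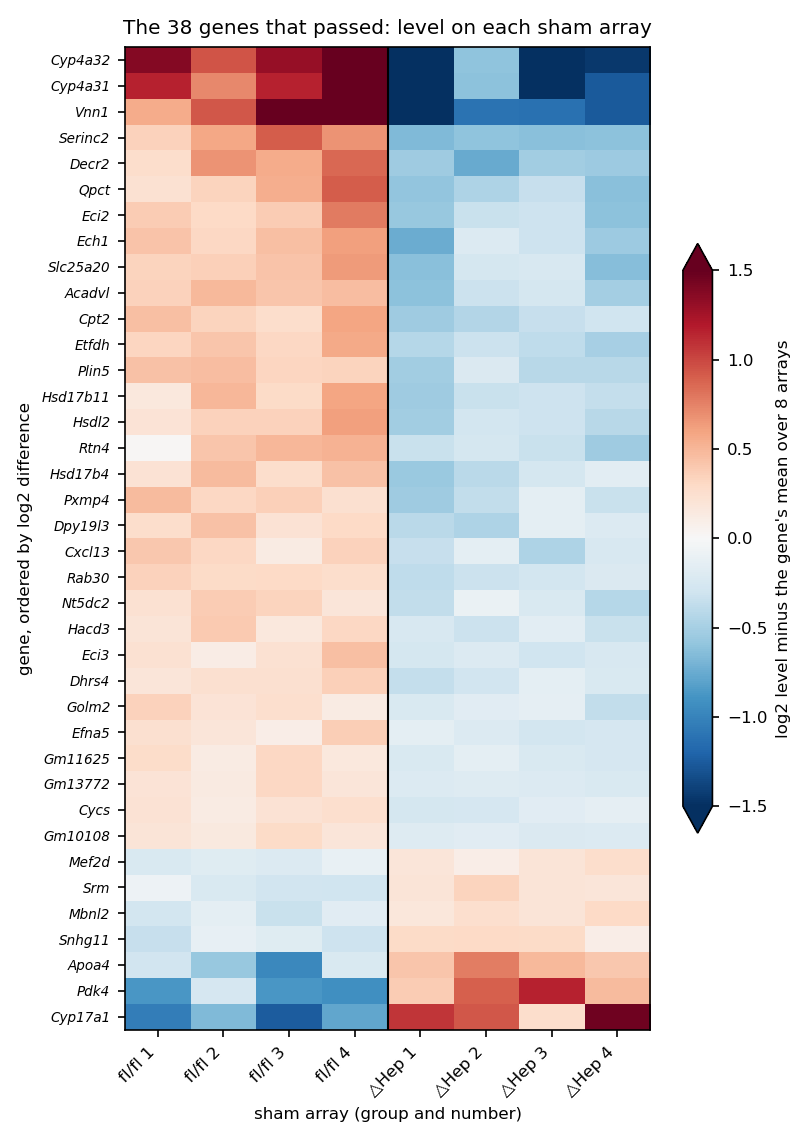
The y axis lists the 38 genes that passed, ordered by log2 difference, and the x axis the 8 sham arrays. Colour is the log2 level minus the mean of the gene over the 8 arrays, capped at 1.5 in each direction. The vertical line separates 4 fl/fl arrays from 4 Ppara△Hep arrays, and in each gene all 4 arrays of one genotype lie above all 4 of the other.

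The Cyp4a enzymes, which hydroxylate the far end of fatty acids in the endoplasmic reticulum, held the largest decreases. Cyp4a32 was at 4.11, 5.64, 4.30 and 4.79 on the Ppara△Hep arrays and at 7.62, 7.18, 7.55 and 8.74 on the fl/fl arrays. Its difference was -3.06 ± 0.37, 8.36-fold lower (limma adjusted p = 0.0182). Cyp4a31 fell by 2.67 ± 0.34 on the log2 scale, 6.38-fold, with arrays at 4.12 to 5.41 against 6.75 to 8.35 (limma adjusted p = 0.0204). In both genes Ppara△Hep array 2 was the highest of its group and fl/fl array 4 the highest of all. Cyp4a14, a classical PPARα target, was at 2.37, 4.85, 2.75 and 3.19 against 7.23, 6.08, 6.99 and 9.62. Its groups did not overlap, yet the difference of -4.20 ± 0.72 did not pass (limma adjusted p = 0.0751), with an SD of 1.09 and 1.51 within the genotypes. Among genes with a mean of at least 4 over the 8 arrays it passed (limma adjusted p = 0.0448). It met that cut only through its high fl/fl arrays, so this adds no support. The neighbouring Cyp4a12a and Cyp4a12b, known as male-biased hydroxylases, had differences of 0.02 ± 0.17 and -0.01 ± 0.17. Of 5 measured members, 3 had an unadjusted limma p below 0.05 and were lower, against 7.25% of all genes. Cyp4a31 and Cyp4a32 are close copies of each other, as are Cyp4a12a and Cyp4a12b, and whether their probe sets read each other's transcripts was not tested.

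In the mitochondrial β-oxidation list all 14 measured members were lower in Ppara△Hep livers. Of these, 2 passed and 11 had an unadjusted p below 0.05 (7.25% of all genes were lower at that threshold). In 10 the groups did not overlap (4.43% of all genes in that direction). The median difference was -0.39, beside -0.02 over all genes. Acadvl, the dehydrogenase that starts oxidation of very long chains, was at 6.78, 7.07, 7.13 and 6.88 on the Ppara△Hep arrays and at 7.74, 7.88, 7.81 and 7.86 on the fl/fl arrays. It fell by 0.86 ± 0.08, 1.81-fold (limma adjusted p = 0.00453), and its groups lay far apart relative to their spread. Etfdh, which passes electrons from the acyl-CoA dehydrogenases to ubiquinone, was at 6.62, 6.72, 6.66 and 6.55 against 7.37, 7.46, 7.35 and 7.61. Its difference was -0.81 ± 0.07 (limma adjusted p = 0.00373). The subunits of the trifunctional protein that carries out the later steps, Hadha and Hadhb, differed by -0.38 ± 0.06 and -0.40 ± 0.08, and Hadha fell just short of the threshold (limma adjusted p = 0.05). Other members with values were Eci1 at -0.55 ± 0.10, Acadl at -0.46 ± 0.10, Acads at -0.43 ± 0.09, Decr1 at -0.42 ± 0.08 and Acaa2 at -0.37 ± 0.07. Not all steps differed alike. The medium-chain dehydrogenase Acadm was at -0.11 ± 0.09, Hadh at -0.10 ± 0.10 and the hydratase Echs1 at -0.04 ± 0.06, each with overlapping groups.

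The carnitine shuttle, which carries long-chain acyl groups into mitochondria, differed by step. Its inner-membrane members fell. Cpt2, which regenerates acyl-CoA inside, was at 6.63, 6.73, 6.82 and 6.86 on the Ppara△Hep arrays against 7.62, 7.50, 7.43 and 7.75, a fall of 0.81 ± 0.08 (limma adjusted p = 0.00568). The carrier Slc25a20 was at 6.37, 6.72, 6.75 and 6.35 against 7.32, 7.35, 7.42 and 7.62, a fall of 0.88 ± 0.11 (limma adjusted p = 0.0182). The outer-membrane enzyme Cpt1a, often named as the rate-setting step, was not lower. It was at 8.39, 8.60, 8.18 and 8.01 against 8.19, 7.87, 7.97 and 8.41, and the groups overlapped around a difference of 0.19 ± 0.14 (limma adjusted p = 0.604). The carnitine importer Slc22a5 was level, at 4.70 ± 0.08 and 4.71 ± 0.20 (SD, n = 4 each).

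Of 18 measured genes of peroxisomal fatty acid oxidation, 5 passed and all 5 were lower. With those 5 included, 11 were lower and 2 higher at an unadjusted p below 0.05 (7.25% and 4.47% of all genes), and the median was -0.35. Decr2, which reduces dienoyl-CoA in peroxisomes, was at 6.54, 6.31, 6.55 and 6.53 on the Ppara△Hep arrays and at 7.34, 7.75, 7.63 and 7.94 on the fl/fl arrays. It fell by 1.18 ± 0.12, 2.27-fold (limma adjusted p = 0.00568). The isomerases Eci2 and Ech1 fell by 0.92 ± 0.11 and 0.91 ± 0.11 (limma adjusted p = 0.0182 and 0.0188), and the bifunctional enzyme gene Hsd17b4 by 0.69 ± 0.09 (limma adjusted p = 0.0223). Eci3 fell by 0.51 ± 0.07 but is dim, at 2.43 ± 0.04 against 2.94 ± 0.14 (SD, n = 4 each). Outside the list, Pxmp4, a peroxisomal membrane protein, fell from 8.18 ± 0.10 to 7.49 ± 0.16, and Hsdl2 and Dhrs4, short-chain dehydrogenases found in peroxisomes, fell by 0.76 ± 0.09 and 0.51 ± 0.06. The spread among members was again wide. Ehhadh, the other bifunctional enzyme, had overlapping groups, since fl/fl array 1 at 6.99 lay among the Ppara△Hep values of 6.92 to 7.13 while the other fl/fl arrays were at 7.48 to 7.76. Its difference was -0.46 ± 0.14 (limma adjusted p = 0.307) and among the fits without 1 array it passed only without that one (limma adjusted p = 0.0446, and up to 0.568 in the others). The thiolase genes Acaa1a and Acaa1b, near-identical copies, differed by -0.28 ± 0.08 and -0.43 ± 0.18. Pex11a, which divides peroxisomes, stood at 5.59 ± 0.17 and 5.66 ± 0.06, and Phyh and Scp2 differed by 0.00 ± 0.06 and 0.03 ± 0.05.

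**Figure D3:**
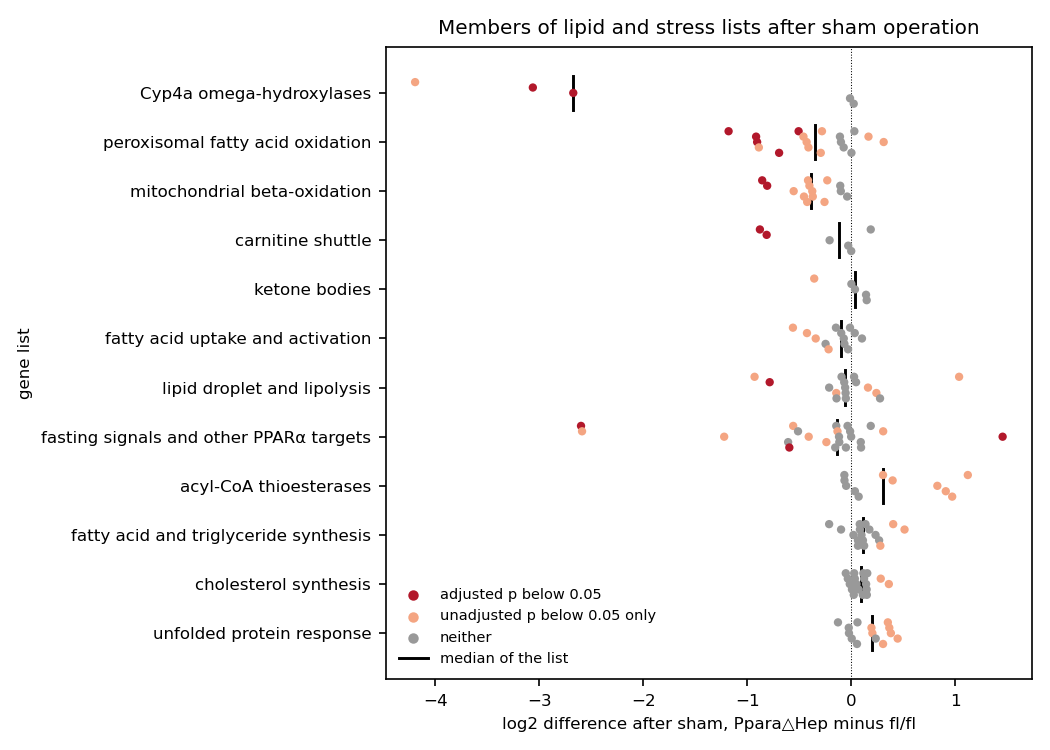
Each point is a measured member of the list named on the y axis, and the x axis is its log2 difference after sham operation. Red points passed, orange points had only an unadjusted limma p below 0.05, and black bars are list medians. The oxidation lists lie left of 0 (medians -0.39 in mitochondria and -0.35 in peroxisomes), whereas the thioesterases and the unfolded protein response lie right of it (medians 0.30 and 0.20).

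Over the 9 fatty acid lists together, the list of fasting signals and other PPARα targets included, 110 genes were measured. Of these, 15 passed (13.6%, against 0.126% of all genes), 14 of them lower. Pdk4 was the 1 that was higher. The lists were chosen with these data known, and the classical targets in them are not a sample of all genes.

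Lipid droplet genes did not move as a group. Plin5, a droplet coat protein that tethers droplets to mitochondria, was at 4.79, 5.09, 4.89 and 4.89 on the Ppara△Hep arrays and at 5.75, 5.77, 5.63 and 5.64 on the fl/fl arrays. It fell by 0.79 ± 0.07 (limma adjusted p = 0.00453) and was the only one of 16 measured members to pass. Fitm1, which helps droplets form, had groups apart at 3.97 to 4.63 against 5.08 to 5.60, with a difference of -0.93 ± 0.17 (limma adjusted p = 0.0853). The abundant coat gene Plin2 stood at 8.42 ± 0.15 and 8.47 ± 0.14, and Cidec, which fuses droplets, at 2.83 ± 0.07 and 2.89 ± 0.03 (SD, n = 4 each). G0s2, an inhibitor of the lipase ATGL, ran the other way, at 6.54, 7.23, 6.81 and 7.38 against 5.74, 6.26, 5.99 and 5.83. Its difference of 1.04 ± 0.18 did not pass over all genes (limma adjusted p = 0.0751) but did among those with a mean of at least 4 (0.0449), and no Ppara△Hep array was as low as any fl/fl array. Hsd17b11, a dehydrogenase found on droplets, fell from 5.87 ± 0.20 to 5.11 ± 0.10 (limma adjusted p = 0.0188).

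Among other known targets, Vnn1, a pantetheinase that releases cysteamine, was at 1.84, 2.45, 2.43 and 2.29 on the Ppara△Hep arrays and at 4.10, 4.49, 5.13 and 5.69 on the fl/fl arrays. It fell by 2.60 ± 0.30, 6.06-fold (limma adjusted p = 0.0182), to a level close to the median of all probe sets. Mfsd2a, a lysophospholipid transporter, was at 2.65 to 3.44 against 4.06 to 7.55 and did not pass with a difference of -2.59 ± 0.61 (limma adjusted p = 0.202). Retsat, retinol saturase, was at 5.90 to 7.13 against 7.68 to 8.13 and did not pass either (-1.22 ± 0.22, limma adjusted p = 0.0916). Fabp1, the main fatty acid binder of liver, was at 9.19, 9.55, 9.62 and 9.21 against 9.69, 10.07, 10.09 and 9.97. Those groups did not overlap, and the difference was -0.56 ± 0.12 (limma adjusted p = 0.167). The fasting hormone Fgf21 was dim, at 2.31 to 2.91 against 2.52 to 2.84, and Cd36, Txnip and Igfbp1 had differences of -0.01 ± 0.14, 0.00 ± 0.14 and 0.09 ± 0.53. Angptl4, which inhibits lipoprotein lipase, was at -0.51 ± 0.25 with overlapping groups. The transcription factor gene Creb3l3 had groups apart at 6.55 to 6.81 against 6.82 to 6.98, with a difference of -0.24 ± 0.06 (limma adjusted p = 0.249). In the list of 15 nuclear receptors and partners, Nr1i3, encoding the xenobiotic sensor CAR, was higher without passing, at 7.58 ± 0.34 against 7.05 ± 0.20.

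Several genes that are not oxidation enzymes ranked high. Serinc2, of a family of membrane proteins that take part in serine lipid synthesis, had the smallest p of all genes. It was at 4.05, 4.11, 4.08 and 4.10 on the Ppara△Hep arrays and at 5.05, 5.29, 5.62 and 5.38 on the fl/fl arrays. The fall was 1.25 ± 0.10, 2.38-fold (limma adjusted p = 0.00373), and the Ppara△Hep arrays stood at nearly one level. Rab30, a small GTPase of the Golgi, fell from 4.45 ± 0.04 to 3.85 ± 0.07, a difference of -0.60 ± 0.05 (limma adjusted p = 0.00373). Qpct, which forms pyroglutamate at peptide ends, fell by 1.01 ± 0.13 between dim levels of 3.59 and 2.57. Hacd3, a dehydratase of fatty acid elongation, fell by 0.53 ± 0.07, Rtn4, which shapes the endoplasmic reticulum, by 0.73 ± 0.11, and Dpy19l3, a mannosyltransferase, by 0.61 ± 0.08. Cycs, encoding cytochrome c, fell by 0.41 ± 0.05, and the pseudogenes Gm10108, Gm13772 and Gm11625 fell by 0.40 ± 0.05, 0.42 ± 0.05 and 0.43 ± 0.06. The Cycs value is from the brighter of its 2 probe sets, whose identifier names a chromosome other than that of the gene. The other probe set, on the gene's own chromosome, differed by -0.31. Whether these probe sets read other transcripts was not tested. Of the 38 genes, 34 are protein-coding in RefSeq and 5 had both group means below 4 on the log2 scale, where differences are understated.

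Cxcl13, a chemokine that attracts B cells, fell by 0.60 ± 0.08 (limma adjusted p = 0.027), from 5.47 ± 0.12 to 4.87 ± 0.13. Of 5 measured B cell markers 1 was lower at an unadjusted p below 0.05 (7.25% of all genes), and their summed linear level was 22.5 to 25.2 in Ppara△Hep and 22.8 to 26.4 in fl/fl livers. All 9 neutrophil markers were lower, 2 of them at an unadjusted p below 0.05 (against the same 7.25%). Their summed levels were 56.5 to 59.4 against 58.6 to 89.1. Most were dim: only 1 of the 9 had a group mean of at least 4, and 0 of the 5 B cell markers did. Ly6g was close to the median of all probe sets in both groups (2.29 to 2.65 and 2.33 to 2.65). Other mostly dim lists leaned either way. All 6 pancreas and all 6 adipocyte markers were lower, while 4 of 5 monocyte markers were higher. Of 12 Kupffer cell and macrophage markers, 11 were higher and 0 reached an unadjusted p below 0.05, with summed levels of 533 to 778 against 466 to 714. No member of the 13 marker lists passed. The median difference was -0.15 for the neutrophil markers and 0.14 for the Kupffer cell and macrophage markers. Beside them, it was -0.02 over all genes and 0.02 among genes with a mean of at least 4. The part of these cells in the results was not tested, and in whole liver fewer cells of a type and less RNA per cell cannot be told apart.

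Among the genes that rose, Cyp17a1, the steroid 17α-hydroxylase, changed most. It was at 7.76, 7.62, 6.96 and 8.15 on the Ppara△Hep arrays and at 5.66, 6.04, 5.45 and 5.91 on the fl/fl arrays. The rise was 1.86 ± 0.22, 3.63-fold (limma adjusted p = 0.0182), and it passed in 4 of the 8 fits without 1 array. Pdk4, a kinase that blocks pyruvate oxidation and is otherwise known as a gene that PPARα switches on, was at 5.45, 5.96, 6.21 and 5.54 against 4.19, 4.82, 4.20 and 4.15. It rose by 1.45 ± 0.19, 2.74-fold (limma adjusted p = 0.0221), with fl/fl array 2 above its group and below every Ppara△Hep array, and it passed in 2 of the 8 fits. Apoa4, an apolipoprotein of triglyceride-rich particles, was at 9.62, 9.96, 9.68 and 9.60 against 8.91, 8.62, 8.23 and 8.96. Its rise of 1.04 ± 0.15 passed (limma adjusted p = 0.0402) and was the only call among 15 measured lipoprotein genes. It passed in 1 of the 8 fits without 1 array, the one without fl/fl array 4. The smaller rises were of Snhg11, a long noncoding RNA, by 0.48 ± 0.07, Mbnl2, a splicing regulator, by 0.46 ± 0.06, Srm, spermidine synthase, by 0.45 ± 0.06, and the transcription factor gene Mef2d by 0.36 ± 0.05. In these the Ppara△Hep and fl/fl arrays stood apart by small margins, and Srm lost its call under cyclic loess and quantile scaling (limma adjusted p = 0.0679 and 0.12, and up to 0.514 with all 16 arrays).

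Acyl-CoA thioesterases, which split acyl-CoA into free fatty acid and CoA, leaned to the higher side in Ppara△Hep livers. None of 11 measured members passed, but 6 were higher at an unadjusted limma p below 0.05 (4.47% of all genes). In 4 the groups were apart and higher (2.37% of all genes), and the median was 0.30. Acot1, the cytosolic form, was at 5.56, 5.84, 5.83 and 5.57 on the Ppara△Hep arrays and at 4.54, 3.96, 4.61 and 5.21 on the fl/fl arrays. The difference was 1.12 ± 0.21 (limma adjusted p = 0.112), and without fl/fl array 4, the highest of its group, it was 1.33 (limma adjusted p = 0.027, and up to 0.333 without another array). Acot4, a peroxisomal form whose promoter is printed above, was at 5.10, 5.35, 5.04 and 4.65 against 4.03, 4.06, 3.95 and 4.47, a difference of 0.91 ± 0.15 (limma adjusted p = 0.0653, and 0.0409 among genes with a mean of at least 4). The mitochondrial Acot2 had a difference of 0.83 ± 0.19 with overlapping groups, Acot3 0.97 ± 0.24 and the dim Acot6 0.40 ± 0.07. Acot5 at 0.07 ± 0.10 did not follow, nor did Acot12 at -0.07 ± 0.14 and Acot13 at -0.07 ± 0.10. Acot1 to Acot6 are 6 neighbouring protein-coding genes on chromosome 12 that share sequence, so their values are not independent.

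Some lists lay to the higher side without any call. Of 17 fatty acid and triglyceride synthesis genes 15 were higher and 3 of these reached an unadjusted p below 0.05 (4.47% of all genes were higher at that threshold), the clearest being Acacb, whose product makes the malonyl-CoA that restrains mitochondrial import, at 5.59 ± 0.16 against 5.08 ± 0.19 (difference 0.51 ± 0.10, limma adjusted p = 0.145). Elovl5 and Dgat2 differed by 0.40 ± 0.12 and 0.28 ± 0.07, while Scd1 and Fasn differed by 0.06 ± 0.11 and 0.27 ± 0.18 with overlapping groups. Of 18 cholesterol synthesis genes 15 were higher and 2 reached that threshold, with Mvd at 0.36 ± 0.07. Of 14 genes of the unfolded protein response, which adjusts folding capacity of the endoplasmic reticulum, 7 were higher at that threshold (4.47% of all genes). Among them were Creld2 at 0.44 ± 0.14, Sdf2l1 at 0.35 ± 0.08 and the chaperone gene Hspa5 at 0.20 ± 0.07. The list median was 0.20. In each of these lists, though, only 1 gene had groups apart and higher (2.37% of all genes). The list of bile acid synthesis and transport did not lean, with 8 of 15 genes higher, 7 lower and a median of 0.01. In 2 of the 15 the groups were apart and higher (2.37% of all genes). These were the enzymes Cyp8b1 and Cyp7b1, at 8.75 ± 0.10 against 8.31 ± 0.21 and at 9.54 ± 0.22 against 9.01 ± 0.32 (limma adjusted p = 0.18 and 0.29). Moxd1 was at 6.66 to 9.49 against 2.70 to 7.40, and its groups overlapped and were widely spread (3.11 ± 1.06, limma adjusted p = 0.342). Xist was at 1.35 to 1.49 on all 8 arrays. The median difference of all genes moved by less than 0.1 under every scaling tried. That median was -0.02 over all genes and 0.02 among genes with a mean of at least 4, so brighter genes lean slightly higher.

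The same genotypes were compared after PHx, on arrays that share none with the sham fit. There limma called 0 genes, with 5.57% at an unadjusted p below 0.05. Even so, all 31 genes that were lower after sham were lower after PHx, where 43.7% of all genes were lower, and 26 of them had an unadjusted p below 0.05 in that direction (2.28% of all genes). In 21 of the 31 the groups did not overlap there (1.31%). The genes that rose after sham did not recur in this way. Of those 7, 3 were higher after PHx (56.2% of all genes were), and only Snhg11 had an unadjusted p below 0.05, with 0.28 ± 0.06 (3.29% of all genes were higher at that threshold). Its groups were also apart (2.41% of all genes were, in that direction). Cyp17a1, Pdk4 and Apoa4 were at -0.49 ± 0.90, -0.42 ± 0.76 and -0.23 ± 0.41 after PHx.

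**Figure D4:**
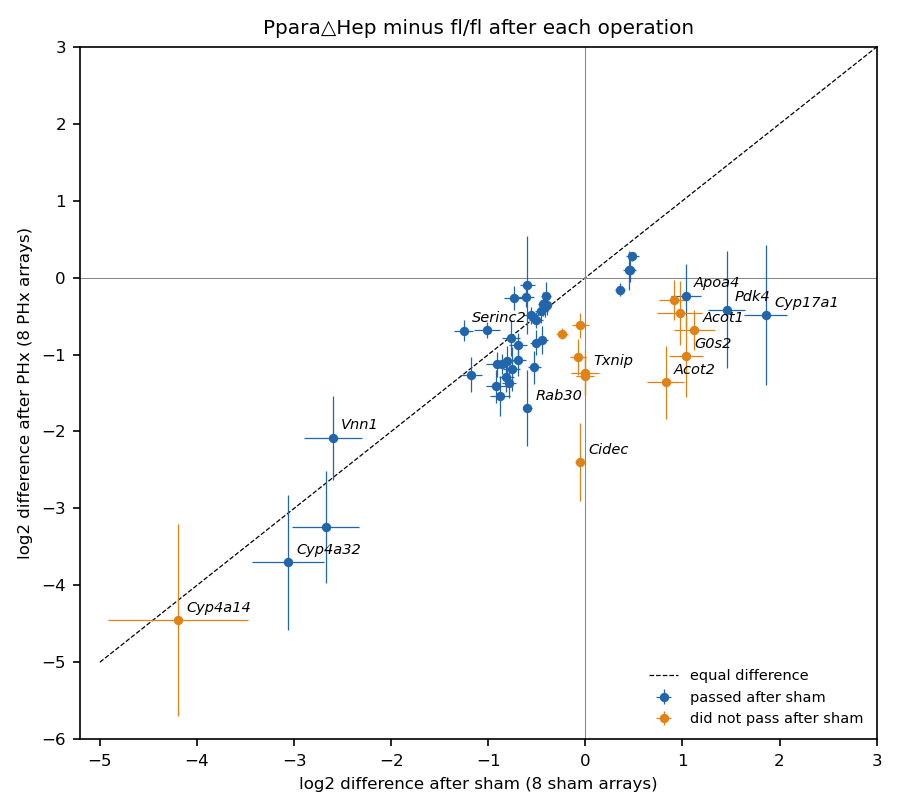
Points show the log2 genotype difference (Ppara△Hep minus fl/fl) after sham on the x axis and after PHx on the y axis, for the 38 genes that passed after sham (blue) and 12 others named in the text (orange), with SE bars from fits of 8 arrays each. Genes that were lower after sham lie below 0 on both axes. Pdk4, Apoa4, Cyp17a1, G0s2 and the thioesterases lie to the right of 0 and at or below 0 on the y axis.

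The difference between both genotype effects was tested as an interaction over all 16 arrays, and 0 genes passed (11.3% at an unadjusted limma p below 0.05, smallest adjusted p = 0.286). Of the 38 genes, 11 were at an unadjusted p below 0.05, but the interaction contains the sham difference by which they were chosen. Their count therefore cannot be set against the share of all genes. For Acot1 the genotype difference was 1.12 ± 0.21 after sham and -0.68 ± 0.26 after PHx, an interaction of -1.80 ± 0.36 (limma adjusted p = 0.286). For Acot2 it was 0.83 ± 0.19 and -1.36 ± 0.47 (interaction -2.19 ± 0.55, limma adjusted p = 0.327). For G0s2 it was 1.04 ± 0.18 and -1.02 ± 0.53 (interaction -2.05 ± 0.60, limma adjusted p = 0.327). Crat, which exchanges acyl groups with carnitine, was at 0.31 ± 0.07 and -0.82 ± 0.27, and Pdk4 had an interaction of -1.87 ± 0.84 (limma adjusted p = 0.424). A further set was level after sham and lower after PHx in Ppara△Hep livers: Cidec at -0.06 ± 0.05 and -2.40 ± 0.51, Slc22a5 at 0.00 ± 0.09 and -1.27 ± 0.25, Txnip at 0.00 ± 0.14 and -1.24 ± 0.30, Pex11a at -0.07 ± 0.08 and -1.03 ± 0.24, and Plin2 at -0.05 ± 0.09 and -0.62 ± 0.16. None of these interactions passed, so the effects of genotype are not shown to differ between the operations.

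**Figure D5:**
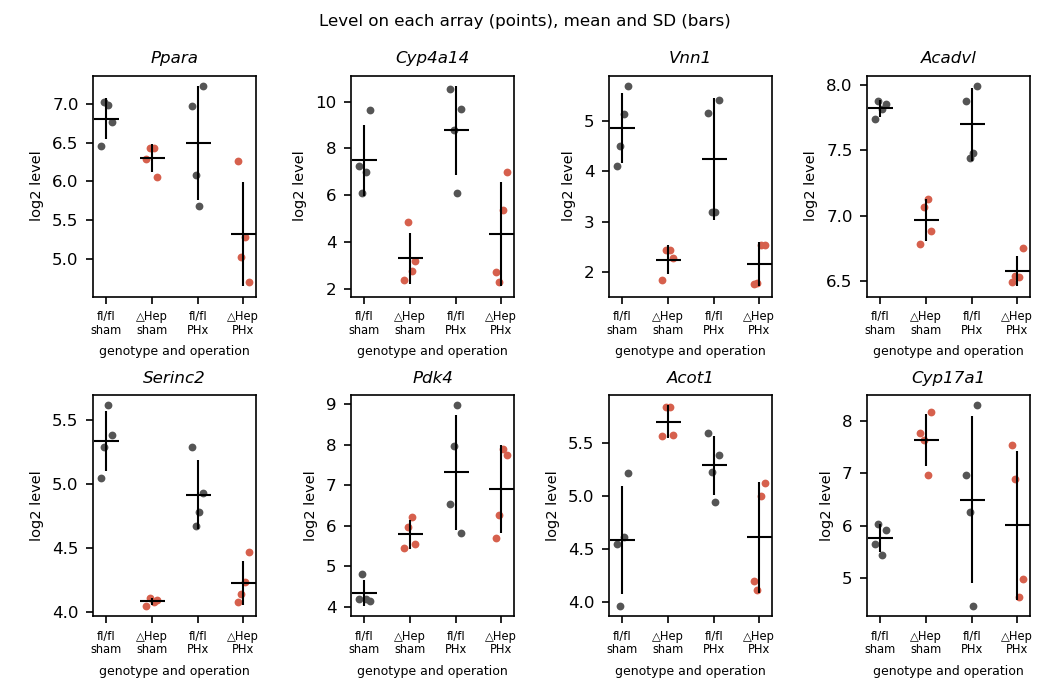
The y axis is the log2 level of the gene named above each panel, and the x axis is genotype and operation, with 4 arrays as points and the mean and SD as bars. Acadvl and Serinc2 are lower in Ppara△Hep livers after both operations, Pdk4, Acot1 and Cyp17a1 are higher after sham, and the PHx groups spread more widely in Pdk4 and Cyp17a1.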

How the data were processed

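The values as deposited are on a log2 scale per probe set, made with RMA (background correction, normalization between arrays and summary of probes), per the submitters' processing notes. The sources used here do not give the software or the build. RMA pulls low values together, so differences near background are understated. Of 72688 probe sets, 30604 had 1 symbol, 2146 several and 39938 none listed. Symbols came from the platform annotation, with 827 updated through RefSeq. A gene with several probe sets (355 genes) kept its brightest probe set by mean over the 8 sham arrays, leaving 30142 genes. Some genes of the lists, Cyp4a10 and Ddx3y among them, had no such probe set and were not analysed here.

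The test was limma's (version 3.58.1, R 4.3.3, data.table version 1.17.8), with lmFit and eBayes on the 8 sham arrays, with 6 residual degrees of freedom. The PHx fit used the other 8 arrays, and the interaction all 16. The adjusted p is Benjamini-Hochberg over 30142 genes, with a threshold of 0.05. Each ± beside a difference is an SE and beside a level an SD. The number of arrays, 4 per group, limits the precision. The code was checked on simulated data.

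The rule for naming took, of the genes that passed, the 15 per direction with the largest difference and a group mean of at least 4. It added genes with the smallest p, a 1.5-fold difference and groups apart up to 12 in a direction, the members of each list that passed and its 5 largest with a mean of at least 4, and a fixed set of targets and checks. Other genes were chosen after their values were seen. The members, the 28 pathway and 13 marker lists and the rule were chosen with earlier results of these data known. Alternatives were other scalings, filters, variance models, array weights, samples and gene sets, and leaving out each array.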

Additional observations from a re-analysis of the deposited data

Results flagged for a closer look

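In 6 of the groups of 4 arrays examined, 1 array stood far from the other 3 for a named gene. Chance alone gives such a gap in about 1 of 20 groups, and many groups were examined. In the sham Ppara△Hep group these were Decr2 at 6.31 on array 2, Snhg11 at 3.23 on array 4, Srm at 5.98 on array 2 and Fgf21 at 2.91 on array 2. In the sham fl/fl group they were Pdk4 at 4.82 on array 2 and Il22ra1 at 4.91 on array 1. Il22ra1, a receptor subunit for interleukin 22, had a difference of 0.60 ± 0.13 that did not pass (limma adjusted p = 0.159).

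Among probe sets outside the genes tested, 1 of the 2146 with several symbols passed when all 72688 probe sets were adjusted together, with a log2 difference of -0.61. It is not named here because its symbols cannot be told apart.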

How the results depend on the processing

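The counts of 31 lower and 7 higher genes depended on the settings more than the directions did. Higher calls numbered 12 under cyclic loess, 14 among genes with a mean of at least 4, 16 with the range of title numbers as a block and 18 among protein-coding genes. The fit on all 16 arrays called 3 lower and 1 higher. Adjusting over all 72688 probe sets, an alternative chosen after seeing the data, left 5 lower and 0 higher. Without 1 array, lower calls ranged from 7 to 23 and higher calls from 0 to 11, with fewer arrays in each such fit. The cause of the other shifts was not tested. Counts under quantile scaling, subtracted array medians, array weights, every probe set tested and the trend and robust option were within 1.5 times those reported.

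Among the genes the rule named, signs turned only in those near 0. Plin2 was at 0.01 without Ppara△Hep array 1 and 0.0136 without fl/fl array 1, within a range of -0.1066 to 0.0136 over the fits without 1 array. Cd36 was at 0.0115 with array medians subtracted, 0.0795 without Ppara△Hep array 4 and 0.1252 without fl/fl array 4, within a range of -0.0787 to 0.1252. Ppara passed with the title range as a block (limma adjusted p = 0.0259), though what these numbers mark is not stated. Cyp4a14 and G0s2 passed among genes with a mean of at least 4 (limma adjusted p = 0.0448 and 0.0449), though Cyp4a14 met that cut only through its fl/fl arrays. No paired analysis was possible because the labels give the groups no shared replicate numbers. Signal near background limits dim genes such as Eci3, Qpct and Efna5.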
